A study of Mus musculus with 18 samples.

Results

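Immediate early genes are transcribed within minutes of a stimulus and without new protein synthesis, and 10 of them were followed here through the vessels of the mouse central nervous system. The genes were Fos, Fosb, Jun, Junb, Atf3, Egr1, Nr4a1, Ier2, Dusp1 and Zfp36, and they were taken by symbol from the deposited count tables of Brain, Retina and Choroid. They make up 10 of the 14411 genes listed in at least 1 table. All 10 were listed among the 13957 genes of the Brain table and among the 12827 genes of the Retina table. The Choroid table listed 7 of them among 7569 genes, and Fos, Fosb and Atf3 were not analysed there. In the deposited coordinates (GRCm38, mm10), Ier2 (8:84661331-84662852) and Junb (8:84976909-84978748) lie near each other on the minus strand of chromosome 8. Zfp36 (7:28376784-28379228) and Fosb (7:19302696-19310045) both lie on the minus strand of chromosome 7. Jun (4:95049036-95052222), Atf3 (1:191170297-191183333) and Dusp1 (17:26505591-26508472) are also on the minus strand, and Fos (12:85473901-85477270) and Nr4a1 (15:101266846-101274794) on the plus strand. Counts are per gene, and whether the counting used the strand is not given in the sources used here.

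All 18 libraries came from Cdh5(PAC)-cre/ERT2+; NuTRAP+ mice that had received tamoxifen. Cdh5(PAC)-cre/ERT2 is a transgene in which regulatory DNA of Cdh5, the gene of the endothelial adhesion protein VE-cadherin, drives a Cre recombinase that tamoxifen activates. NuTRAP is a reporter allele that, once recombined, places a green fluorescent tag on a ribosomal protein. Translating ribosome affinity purification (TRAP) then captures tagged ribosomes with an antibody to that tag. The Positive fraction is the RNA captured in this way, and the Input is a part of the lysate kept back before the capture. Brain, retina and choroid each had 3 Input and 3 Positive libraries, which gives 6 groups. Every group carried both alleles and tamoxifen, and a capture from mice without the recombinase was not analysed here. The sources used here give neither the age and sex of the mice nor how many animals stand behind a library, so a p-value measures only how far these samples spread, which may be technical. In such bulk samples fewer cells of a type and less RNA per cell cannot be told apart.

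Several of the encoded proteins are transcription factors. Fos and FosB pair with Jun proteins to form AP-1, which binds short DNA elements in the promoters of later genes, and ATF3 is a stress-induced relative of the same leucine zipper class. Egr1 is a zinc finger factor and Nr4a1 an orphan nuclear receptor. Dusp1 is a phosphatase that switches off MAP kinases, and Zfp36 encodes tristetraprolin, which binds AU-rich messages and hastens their decay, so both belong to the brakes of the response. Ier2 encodes a small nuclear protein that is induced by growth factors. In neurons several of these genes follow synaptic activity, and in endothelium they respond to flow, growth factors and tissue handling. Their transcripts are short-lived.

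The elements by which such genes are switched on are short, and the promoters of 4 members are shown, chosen so that each kind of element marked in capitals appears at least once. The 250 bases before the transcription start were read from RefSeq promoters on GRCm38.p6, which held 8 of the 10 members. Egr1 and Ier2 had no entry. The printed windows are the last 150 bases before the start, 5′ to 3′ on the strand of the gene, and lie at chr12:85473740-85473889 (plus strand, Fos), chr17:26508473-26508622 (minus strand, Dusp1), chr15:101266696-101266845 (plus strand, Nr4a1) and chr7:28379229-28379378 (minus strand, Zfp36). Capitals mark TGACG or TGACGTCA (the cAMP response element and its part, bound by CREB and ATF proteins), GCGGGGGCG (the Egr site), TATAAA (the TATA box) and the CArG box (bound by serum response factor), on either strand.
Fos: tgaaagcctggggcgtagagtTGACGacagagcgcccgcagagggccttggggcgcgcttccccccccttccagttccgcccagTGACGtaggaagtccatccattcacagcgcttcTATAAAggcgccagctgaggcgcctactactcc
Dusp1: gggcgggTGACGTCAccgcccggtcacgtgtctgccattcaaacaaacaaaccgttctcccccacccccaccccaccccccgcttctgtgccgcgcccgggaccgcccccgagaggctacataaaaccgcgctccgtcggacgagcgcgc
Nr4a1: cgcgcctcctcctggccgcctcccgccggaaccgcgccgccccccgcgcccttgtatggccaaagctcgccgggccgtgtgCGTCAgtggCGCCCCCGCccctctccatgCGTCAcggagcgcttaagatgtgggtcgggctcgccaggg
Zfp36: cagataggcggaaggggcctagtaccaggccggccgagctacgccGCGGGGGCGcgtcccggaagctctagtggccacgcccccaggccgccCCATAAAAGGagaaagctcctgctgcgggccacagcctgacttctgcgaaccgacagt
A CArG box was found in 1 of the 8 promoters, that of Zfp36, where it spans bases 58 to 49 before the start. Of all 32851 promoters in that table, 1.47% held one. The full element TGACGTCA was found in 1 of 8, the Dusp1 promoter, against 1.55% of all promoters. Its part TGACG, which also lies inside the full element, was found in 6 of 8 (Fos, Fosb, Junb, Dusp1, Atf3 and Nr4a1), against 17.8%. The Egr site was found in 3 of 8 (Fosb, Nr4a1 and Zfp36), against 2.57%. The AP-1 site TGANTCA was found in 0 of 8, against 6.75%, the ETS core GGAAGT in 2 of 8 (Fos and Junb), against 19.7%, and the TATA box in 1 of 8 (Fos), against 12.4%. A match is only a match of letters in this window.

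Depth differed by tissue. Listed counts per library ran from 28128779 to 43219831 for Brain and from 12325677 to 36157086 for Retina. They ran from 2018120 to 10031271 in Choroid Input and from 713755 to 2717287 in Choroid Positive. Choroid Positive replicate 2 was the shallowest, and the ribosomal RNA gene Rn45s together with Lars2 took 16.7% of its counts, against at most 1.22% in any other library. In that library the members had between 56 counts (Junb) and 209 counts (Jun). Levels are given as CPM, counts relative to library size, after TMM scaling, which sets libraries on a common scale by a trimmed mean of gene ratios. Positive was compared with Input in each tissue by edgeR's quasi-likelihood test over all listed genes, and a gene was called at a Benjamini-Hochberg adjusted p under 0.05. All listed members passed the low-count filter. Overlap of the libraries of 2 groups was read for the members only, and the share of all genes without overlap was not computed. Fold changes are log2 values with a standard error (SE), with 3 libraries in each group. This SE of the fit was derived from the test, as the absolute log2 fold change divided by the square root of the F statistic. In simulated counts on the same designs, with 200 genes changed, the test recovered 94% (Brain), 83% (Retina) and 31% (Choroid) of 2-fold changes. Of 4-fold changes it recovered 100%, 100% and 92%, so a missed call in Choroid weighs less than one in Brain. False calls made up 7.18%, 8.5% and 1.6% of the simulated calls in the same order. Far more genes were called in the data than were changed in the simulation, so these shares may differ there.

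The labels of the fractions were checked against cell type markers. The 8 endothelial markers (Cdh5, Pecam1, Cldn5, Tie1, Tek, Flt1, Erg and Emcn) were all higher in Positive in each tissue. Their summed share of the listed counts rose from 0.0111–0.0139% to 0.426–0.472% in Brain, from 0.00756–0.00957% to 0.238–0.461% in Retina and from 0.125–0.216% to 0.885–1.27% in Choroid. All 8 neuronal markers (Snap25, Syt1, Rbfox3, Camk2a, Slc17a7, Gad1, Tubb3 and Nefl) were lower in Brain Positive, where they held 0.313–0.356% of counts against 0.815–0.871% in Input. The summed share of the neuronal markers in Brain Positive was therefore near that of the endothelial markers.

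In brain the members split into 2 directions. Zfp36, Atf3, Ier2, Dusp1 and Jun were higher in the Positive fraction, Egr1, Fos and Fosb were lower, and Junb and Nr4a1 did not pass the test. That is 5 of 10 higher and 3 of 10 lower, in a table where 78.1% of all genes were called, 38.3% higher and 39.7% lower, so 8 calls of 10 is near the background share. The median member had a log2 fold change of 0.54, against -0.02 for all genes. The neuronal and endothelial shares given above moved with these results. So did the 6 fibroblast markers (Col1a1, Col1a2, Dcn, Lum, Pdgfra and Col3a1), all higher in Brain Positive, at 0.15–0.226% of counts against 0.0129–0.0140% in Input. The 6 oligodendrocyte markers were all lower, at 0.0821–0.158% against 0.486–0.553%, and 7 of 8 microglial markers were lower, at 0.0141–0.0229% against 0.0354–0.0394%. Their part in the result was not tested.

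**Figure D1:**
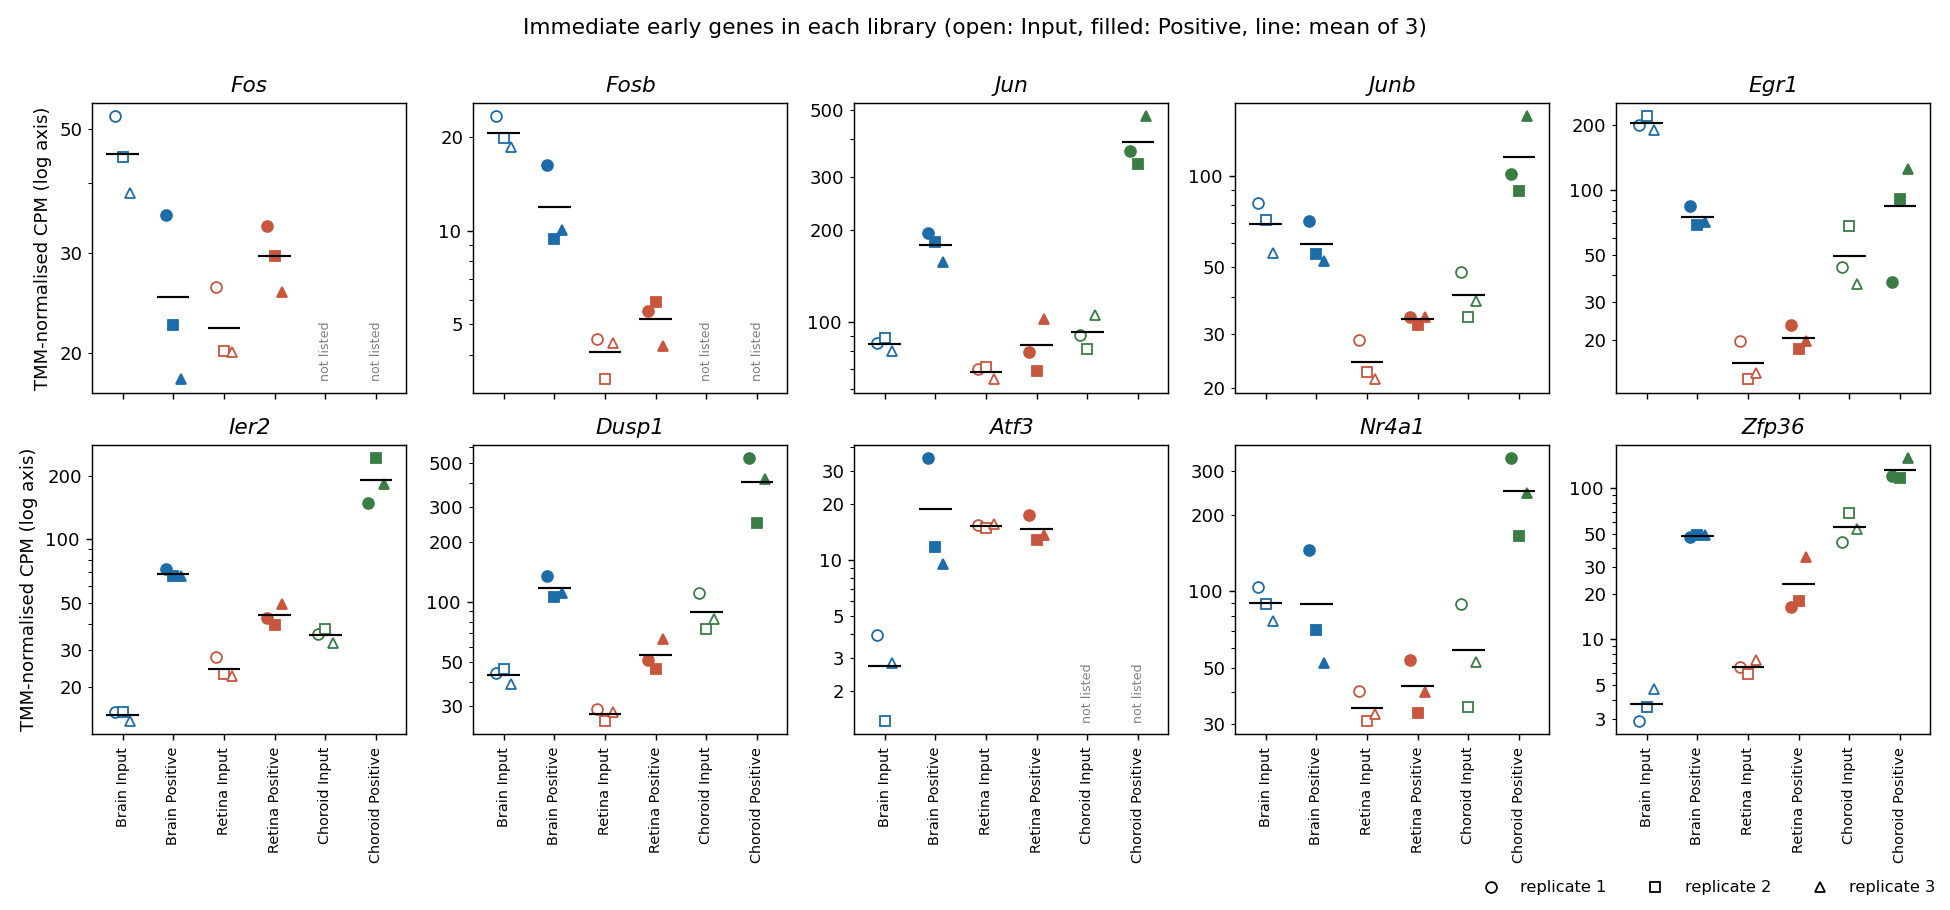
TMM-normalised CPM of each member in every library on a log axis, scaled within each tissue's own table, with open symbols for Input, filled symbols for Positive, shape for the replicate number and a line at the mean of 3. In Brain, Zfp36 stands at 2.88 to 4.67 CPM in Input and at 47.8 to 49.1 CPM in Positive, while Egr1 stands at 191 to 220.1 CPM in Input and at 68.5 to 83.9 CPM in Positive.

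Among the AP-1 genes, Fos stood at 52.6, 44.5 and 38.4 CPM in Brain Input replicates 1, 2 and 3 and at 35.1, 22.4 and 17.9 CPM in the Positive libraries of the same numbers. Every Positive library was below every Input library, and the log2 fold change was -0.85 ± 0.21 (edgeR, adjusted p = 0.00457). Fosb, its close relative, was at 23.4, 20.0 and 18.7 CPM in Input and at 16.3, 9.38 and 10.1 CPM in Positive, which is -0.80 ± 0.19 (adjusted p = 0.00362). Jun, the partner of both in AP-1, moved the other way. It was at 85.1, 88.4 and 79.8 CPM in Input and at 197, 184 and 157 CPM in Positive, with no overlap. The log2 fold change of Jun was 1.08 ± 0.09 (adjusted p = 2.07e-06). Junb, a second Jun protein, was at 81.5, 71.7 and 55.5 CPM in Input and at 71.3, 55.4 and 52.4 CPM in Positive. The fractions of Junb overlapped and its fold change of -0.22 ± 0.15 was not called (adjusted p = 0.197). With the replicate number as a block the same difference was called (adjusted p = 0.0203), and without Brain Input replicate 3 it was -0.36 (adjusted p = 0.0323). Junb was lower in Positive in all 3 pairs of libraries, by 0.19, 0.37 and 0.08 on the log2 scale.

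Atf3 had low counts in Brain Input, from 60 to 125 per library, at 3.98, 1.37 and 2.81 CPM. In Brain Positive it was at 35.1, 11.8 and 9.53 CPM, all above the Input libraries, with replicate 1 the highest by far. The log2 fold change was 2.81 ± 0.52 (edgeR, adjusted p = 6.72e-04), and 2.01 without Brain Positive replicate 1 (adjusted p = 9.03e-04).

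Of the other transcription factors, Egr1 was at 201, 220.1 and 191 CPM in Brain Input. In Brain Positive it was at 83.9, 68.5 and 70.8 CPM, so it was 2.74-fold lower there, with a log2 fold change of -1.45 ± 0.09 (edgeR, adjusted p = 3.02e-07). No Positive library reached an Input library. Nr4a1 was at 104, 88.9 and 76.7 CPM in Input and at 145, 70.4 and 52.0 CPM in Positive. Brain Positive replicate 1 was above and the other 2 Positive libraries below all Input libraries. The fold change of Nr4a1 was -0.01 ± 0.31 and was not called (edgeR, adjusted p = 0.976), but without Brain Positive replicate 1 it was -0.54 and was called lower (adjusted p = 0.0128).

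The members that restrain the response, and Ier2, were all higher in the brain capture. Ier2 rose from 15.2, 15.2 and 13.8 CPM to 72.0, 67.2 and 67.0 CPM, a log2 fold change of 2.22 ± 0.08 (edgeR, adjusted p = 3.04e-09). The 3 pairs differed by 2.24, 2.14 and 2.28, the narrowest range over pairs of any member in Brain. Dusp1, the MAP kinase phosphatase, rose from 43.9, 46.4 and 39.0 CPM to 136, 106 and 112 CPM, which is 1.45 ± 0.10 (adjusted p = 6.89e-07). Zfp36, the message decay factor, had the widest difference of all 10 members. It was at 2.88, 3.59 and 4.67 CPM in Input and at 47.8, 49.1 and 48.9 CPM in Positive, 12.9-fold higher, with a log2 fold change of 3.69 ± 0.15 (adjusted p = 9.63e-09). The Positive libraries of Zfp36 were nearly equal and the Input libraries more spread.

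In the retina 4 members were higher in the Positive fraction, Zfp36, Dusp1, Ier2 and Junb, and none was called lower. The other 6 did not pass the test. Of all genes in the retina, 26.1% were called, 15.3% higher in Positive and 10.8% lower. The median member had a log2 fold change of 0.40, against -0.03 for all genes. The 8 neuronal markers held 0.624–0.651% of the counts in Retina Input and 0.463–0.621% in Positive, and 5 of them were called lower. In Retina Positive the neuronal share was above the endothelial share of 0.238–0.461%, so levels there are not those of endothelium alone. Of the listed microglial markers 5 of 6 were lower (0.00587–0.00669% in Input, 0.00315–0.00345% in Positive), as were 3 of 5 markers of the pigment epithelium (0.0406–0.0570% and 0.0292–0.0558%). Not all cell types fell. Of 6 astrocyte and Mueller glia markers, 2 were lower and 4 were not called (0.280–0.311% in Input, 0.263–0.398% in Positive). None of the 4 mural and 3 oligodendrocyte markers listed was called. Their part in the result was not tested.

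Retinal Fos was at 26.2, 20.1 and 20.1 CPM in Input and at 33.6, 29.7 and 25.6 CPM in Positive. The fractions overlapped, and the log2 fold change of 0.42 ± 0.15 was not called (edgeR, adjusted p = 0.0809). The call changed with a replicate block (adjusted p = 0.0415), with DESeq2 (adjusted p = 0.0450) and without Retina Positive replicate 3, when it was 0.52 (adjusted p = 0.0218). Fos was higher in Positive in all 3 pairs, by 0.36, 0.56 and 0.35. Fosb was low, at 4.5, 3.33 and 4.36 CPM in Input and at 5.52, 5.89 and 4.26 CPM in Positive, and its 0.35 ± 0.23 was not called (adjusted p = 0.294). Jun was at 69.6, 70.8 and 64.4 CPM in Input and at 79.6, 68.8 and 102 CPM in Positive, where replicates 1 and 3 were above the Input libraries and replicate 2 was among them. The fold change of Jun was 0.29 ± 0.14 (adjusted p = 0.161). Junb was at 28.8, 22.6 and 21.3 CPM in Input and at 34.2, 32.3 and 34.3 CPM in Positive, without overlap. It was called at 0.47 ± 0.13 (adjusted p = 0.0336). That call was lost without Retina Input replicate 2 (adjusted p = 0.133), Retina Input replicate 3 (adjusted p = 0.109), Retina Positive replicate 1 (adjusted p = 0.0656) or Retina Positive replicate 2 (adjusted p = 0.0572).

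Atf3 in the retina was at 15.5, 14.8 and 15.5 CPM in Input and at 17.4, 12.8 and 13.6 CPM in Positive, a log2 fold change of -0.06 ± 0.15 (edgeR, adjusted p = 0.805). The retinal fractions of Atf3 overlapped. Egr1 was at 19.8, 13.1 and 14.0 CPM in Input and at 23.5, 18.1 and 19.7 CPM in Positive, which is 0.39 ± 0.19 (adjusted p = 0.172). Nr4a1 was at 40.4, 30.7 and 32.8 CPM in Input and at 53.7, 33.1 and 40.2 CPM in Positive, which is 0.29 ± 0.19 (adjusted p = 0.287). For Egr1 and Nr4a1 the ranges overlapped, although each Positive library was above the Input of its own number.

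Ier2 rose from 27.9, 23.1 and 22.6 CPM to 42.5, 39.5 and 49.7 CPM in the retina, a log2 fold change of 0.84 ± 0.13 (edgeR, adjusted p = 0.00254). Dusp1 rose from 29.0, 25.3 and 28.2 CPM to 51.5, 46.4 and 65.1 CPM, which is 0.99 ± 0.14 (adjusted p = 0.00158). Zfp36 rose from 6.54, 5.93 and 7.32 CPM to 16.3, 17.9 and 35.1 CPM, which is 1.82 ± 0.30 (adjusted p = 0.00322). None of these 3 genes overlapped between fractions. Retina Positive replicate 3 was the highest library for all 3, and also held the most endothelial marker counts, 0.461% against 0.238% and 0.240% in replicates 1 and 2. The same library held the most counts of astrocyte and Mueller glia markers, 0.398% against 0.274% and 0.263%. It held the fewest neuronal marker counts, 0.463% against 0.564% and 0.621%. The part of these cells in the result was not tested. Without that library the fold change of Zfp36 was 1.39 and was called (adjusted p = 0.000153).

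In the choroid 6 of the 7 listed members were higher in the Positive fraction and none was lower. Ier2 was 5.36-fold higher, Dusp1 4.51-fold, Jun and Nr4a1 4.24-fold each, Junb 2.88-fold and Zfp36 2.39-fold, while Egr1 did not pass the test. Of all choroid genes listed, 36.6% were called, 16.3% higher and 20.2% lower. The median member had a log2 fold change of 2.08, against -0.01 for all genes. Markers of the pigment epithelium (from Rpe65, Rlbp1, Rdh5, Best1, Rgr and Lrat) held 1.55–2.30% of the counts in Choroid Input and 0.108–0.149% in Positive. The 6 fibroblast markers held 0.325–0.419% in Input and 0.0402–0.0637% in Positive, and the 5 melanocyte markers 0.537–1.09% and 0.0581–0.192%. All 6 and all 5 were called lower, as were the 5 listed markers of the pigment epithelium. A marker below 50 counts in any library of Choroid Positive is listed only through its counts in Input. For such a marker the filter of the table may have fixed the direction. Neuronal markers held at most 0.0457% in Choroid Input and 0.0202% in Choroid Positive. The part of these cells in the result was not tested.

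Jun was at 90.7, 81 and 105 CPM in Choroid Input and at 365, 333 and 477 CPM in Positive, a log2 fold change of 2.08 ± 0.22 (edgeR, adjusted p = 1.89e-05). Its 3 pairs differed by 2.01, 2.04 and 2.18. Junb rose from 48.2, 34.4 and 38.8 CPM to 101, 89.1 and 158 CPM, which is 1.53 ± 0.28 (adjusted p = 0.00106). Nr4a1 rose from 89.3, 34.8 and 52.6 CPM to 336, 165 and 245 CPM, which is 2.08 ± 0.35 (adjusted p = 5.18e-04). In both fractions replicate 1 had the most and replicate 2 the least Nr4a1, so the 3 pairs agreed more closely, at 1.91, 2.25 and 2.22, than the libraries of either fraction did.

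Ier2 rose from 35.9, 37.8 and 32.5 CPM to 148, 242 and 183 CPM in the choroid, which is 2.42 ± 0.25 (edgeR, adjusted p = 1.88e-05). Dusp1 rose from 112, 73.6 and 82.3 CPM to 531, 251 and 418 CPM, which is 2.17 ± 0.28 (adjusted p = 8.77e-05). Zfp36 rose from 44.1, 68.7 and 53.5 CPM to 119.9, 116 and 158 CPM, which is 1.26 ± 0.25 (adjusted p = 0.00201). In these 3 genes, as in Jun, Junb and Nr4a1, the lowest Positive library was above the highest Input library. Egr1 was the exception, at 43.5, 67.7 and 36.6 CPM in Input and at 37.3, 90.7 and 125 CPM in Positive. Choroid Positive replicate 1 lay among the Input libraries, and the fold change of 0.78 ± 0.40 was not called (adjusted p = 0.157). Without that library Egr1 was called higher, at 1.17 (adjusted p = 0.0185). Without the shallow Choroid Positive replicate 2, the fold changes were 2.18 for Jun, 1.67 for Junb, 2.29 for Nr4a1, 2.23 for Ier2, 2.41 for Dusp1, 1.33 for Zfp36 and 0.73 for Egr1, with the same 6 called. No member's call between tissues changed without it.

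**Figure D2:**
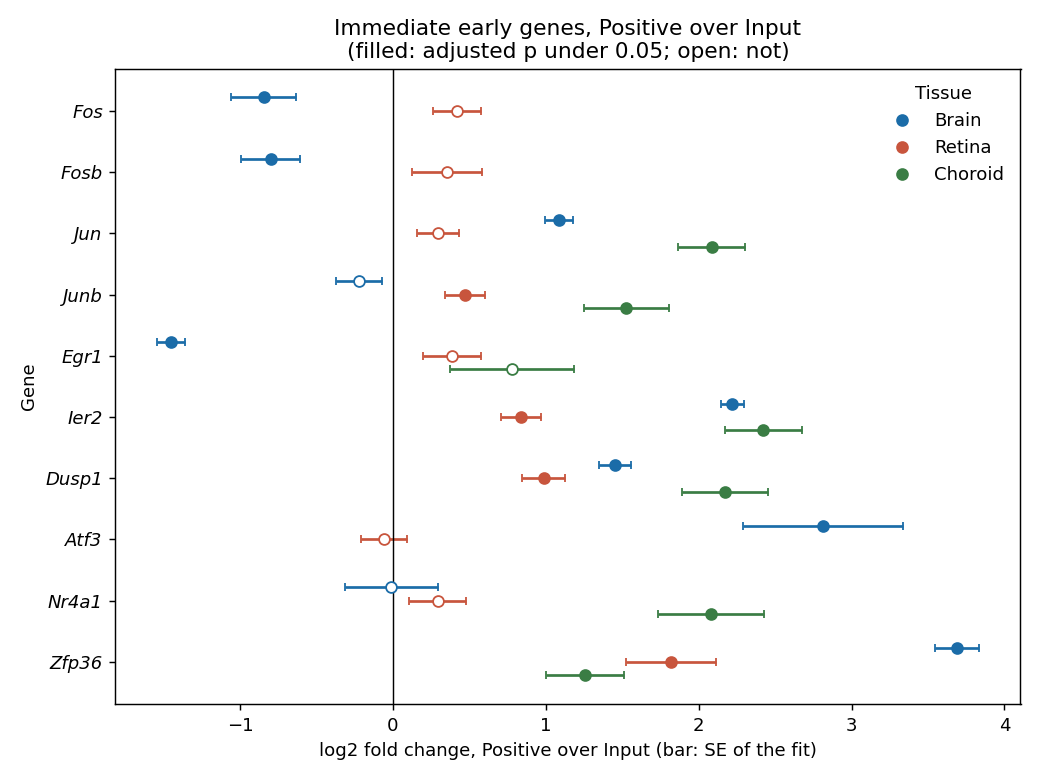
Log2 fold change of Positive over Input for each member and tissue, with the SE of the edgeR fit as a bar, filled where the adjusted p is under 0.05. The called values below 0 are those of Egr1, Fos and Fosb in Brain, and in Choroid 6 of the 7 points are called and lie above 0, from Zfp36 at 1.26 to Ier2 at 2.42.

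Whether the step from Input to Positive differed between tissues was tested directly. For the 7 members listed in all 3 tables this was the difference of the log2 fold changes in a fit of 18 libraries over 7270 shared genes. The 3 differences share their tissues and are not independent of each other. The 8 endothelial markers differed in this step too, with a median log2 fold change of 5.30 in Brain, 6.41 in Retina and 2.78 in Choroid. The part of this in the differences between tissues was not tested. Against Brain, the step in Choroid was greater for Egr1 by 2.42 ± 0.43 (edgeR, adjusted p = 1.31e-04), for Nr4a1 by 2.28 ± 0.50 (adjusted p = 9.17e-04), for Junb by 1.94 ± 0.30 (adjusted p = 3.01e-05) and for Jun by 1.18 ± 0.22 (adjusted p = 2.01e-04). Zfp36 differed in the other direction, by -2.25 ± 0.34 (adjusted p = 3.12e-05). Dusp1 differed by 0.91 ± 0.29 (adjusted p = 0.0148), a call that was lost without Choroid Positive replicate 1 (0.65, adjusted p = 0.0581). Ier2 differed by 0.37 ± 0.22 and was not called (adjusted p = 0.166), but was called by DESeq2 (0.50, adjusted p = 0.0393) and without Choroid Positive replicate 1 (0.54, adjusted p = 0.0335). So 5 of 7 members were higher and 1 lower in this difference, where 51.8% of all genes were called, 21.4% higher and 30.5% lower.

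Against Brain, the step in Retina was smaller for Zfp36 by -1.94 ± 0.34 (edgeR, adjusted p = 3.85e-04), for Ier2 by -1.43 ± 0.21 (adjusted p = 6.49e-05) and for Jun by -0.84 ± 0.21 (adjusted p = 0.00612). It was greater for Egr1, by 1.79 ± 0.40 (adjusted p = 0.00274). Junb at 0.64 ± 0.28 (adjusted p = 0.0926), Dusp1 at -0.52 ± 0.29 (adjusted p = 0.189) and Nr4a1 at 0.26 ± 0.48 (adjusted p = 0.718) were not called. With the pair of libraries as a block, Junb (adjusted p = 0.0446) and Dusp1 (adjusted p = 0.0415) were called. Junb was also called with DESeq2's size factors (adjusted p = 0.0252) by DESeq2 itself (adjusted p = 0.0118) and in a fit of the 12 libraries of these tissues (adjusted p = 0.0153). Thus 1 of 7 members was higher and 3 were lower, where 29.8% of all genes were called, 11% higher and 18.8% lower. The scale matters here, since 37.0% of the called genes were higher with TMM and 61.3% with DESeq2's size factors, which raised the median of all genes by 0.22.

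Fos, Fosb and Atf3 were compared between Retina and Brain in a fit of 12 libraries over 12438 genes. The step was greater in Retina for Fos, by 1.30 ± 0.30 (edgeR, adjusted p = 0.00348), and for Fosb, by 1.18 ± 0.31 (adjusted p = 0.00691). It was smaller for Atf3, by -2.82 ± 0.63 (adjusted p = 0.00274), and by -2.02 without Brain Positive replicate 1. In that fit 48.8% of all genes were called, 28.9% higher and 20% lower.

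Choroid exceeded Retina in the step for Jun by 2.02 ± 0.22 (edgeR, adjusted p = 1.20e-06), for Nr4a1 by 2.02 ± 0.50 (adjusted p = 0.00319), for Ier2 by 1.80 ± 0.22 (adjusted p = 4.68e-06), for Dusp1 by 1.43 ± 0.30 (adjusted p = 7.98e-04) and for Junb by 1.29 ± 0.30 (adjusted p = 0.00190). Zfp36 differed by -0.31 ± 0.34 (adjusted p = 0.484). Egr1 differed by 0.63 ± 0.43 (adjusted p = 0.248), and by 1.07 without Choroid Positive replicate 1, when it was called (adjusted p = 0.0122). That is 5 of 7 higher and none lower, where 45% of all genes were called, 21.7% higher and 23.3% lower.

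The levels themselves were set on 1 scale over the genes shared by all tables, with TMM over 18 libraries. On that scale Choroid Positive was the highest group for 6 of 7 members, all but Egr1. The share of all shared genes with that highest group was not computed. Jun was at 421 ± 82.4 CPM (SD, n = 3) in Choroid Positive and 202 ± 21.3 CPM in Brain Positive. Below them lay Brain Input at 107 ± 6.0 CPM, Choroid Input at 97.8 ± 14.1 CPM, Retina Positive at 96.7 ± 17.0 CPM and Retina Input at 91.6 ± 5.38 CPM, whose libraries overlapped from each group to the next. Junb was at 125 ± 39.7 CPM in Choroid Positive, 87.8 ± 17.0 CPM in Brain Input and 67.4 ± 11.1 CPM in Brain Positive, each overlapping the next. Choroid Input (42.9 ± 7.97 CPM), Retina Positive (39.1 ± 1.51 CPM) and Retina Input (32.5 ± 5.59 CPM) formed a lower run of overlapping groups.

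Egr1 had another order. Brain Input was the highest group at 257 ± 19.7 CPM (SD, n = 3), without overlap with the next. Choroid Positive at 90.8 ± 47.7 CPM and Brain Positive at 84.1 ± 9.11 CPM overlapped, Choroid Input followed at 52.0 ± 16.4 CPM, and Retina Positive at 23.8 ± 3.68 CPM overlapped Retina Input at 21.0 ± 4.97 CPM. Nr4a1 was at 268 ± 92.2 CPM in Choroid Positive, clear of the others. Brain Input (113 ± 17.6 CPM), Brain Positive (101 ± 55.2 CPM), Choroid Input (62.6 ± 30.1 CPM), Retina Positive (49.3 ± 13.1 CPM) and Retina Input (46.5 ± 7.0 CPM) each overlapped the next group.

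Ier2 was at 205 ± 50.5 CPM in Choroid Positive, 77.7 ± 2.88 CPM in Brain Positive and 50.9 ± 4.62 CPM in Retina Positive (SD, n = 3), with no overlap. Choroid Input (37.5 ± 2.37 CPM) and Retina Input (32.9 ± 4.12 CPM) overlapped, and Brain Input was lowest at 18.6 ± 1.11 CPM. All 3 Positive groups of Ier2 were above all 3 Input groups. Dusp1 was at 430 ± 152 CPM in Choroid Positive, 133 ± 17.4 CPM in Brain Positive, 94.7 ± 22.1 CPM in Choroid Input, 62.9 ± 9.33 CPM in Retina Positive, 54.4 ± 4.97 CPM in Brain Input and 36.9 ± 2.54 CPM in Retina Input. Only Retina Positive and Brain Input overlapped in that order. Zfp36 spanned the widest range, from 141 ± 25.4 CPM in Choroid Positive through Choroid Input (58.6 ± 12.2 CPM), Brain Positive (54.9 ± 1.10 CPM), Retina Positive (26.6 ± 11 CPM) and Retina Input (8.84 ± 0.849 CPM) to 4.68 ± 1.11 CPM in Brain Input. Only Choroid Input and Brain Positive overlapped.

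**Figure D3:**
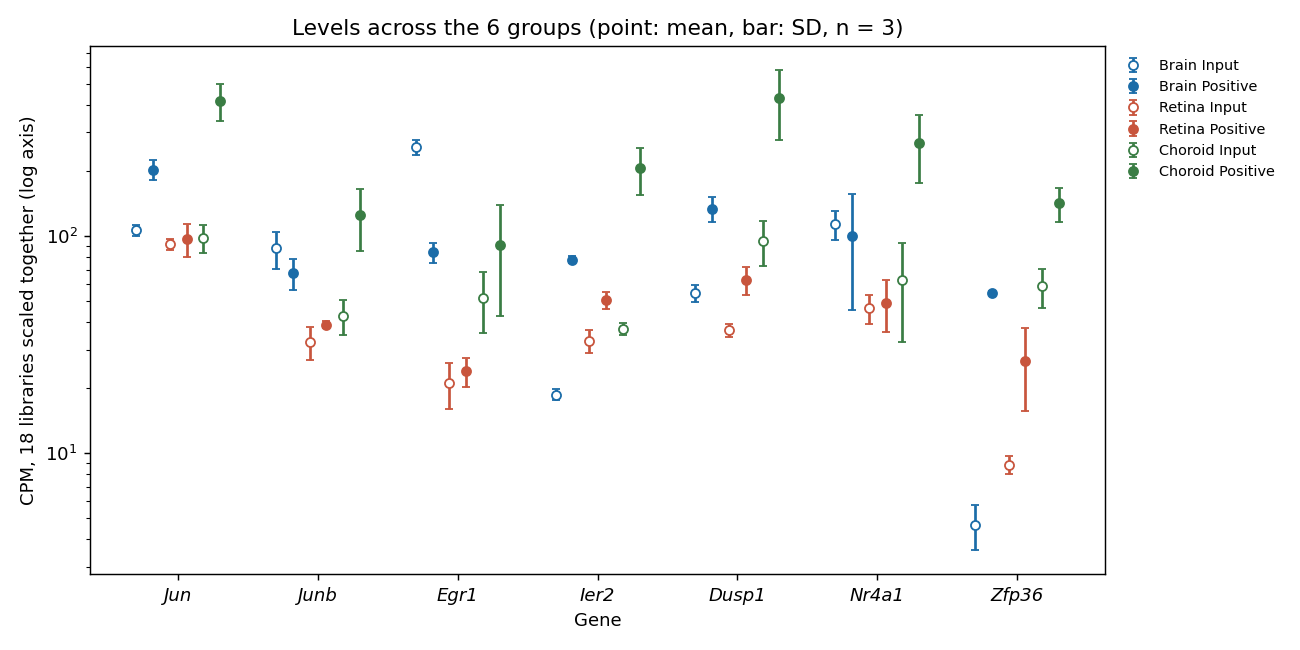
Mean CPM with SD (n = 3) of the 7 members listed in all tables, on a log axis and scaled over 18 libraries, by group. Choroid Positive is the highest group for every gene but Egr1, whose highest group is Brain Input at 257 CPM, and Zfp36 runs from 4.68 CPM in Brain Input to 141 CPM in Choroid Positive.

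Fos, Fosb and Atf3 were placed on a scale of the 12 Brain and Retina libraries. Fos was at 47.0 ± 7.28 CPM in Brain Input (SD, n = 3), above Retina Positive (31.4 ± 3.82 CPM), Brain Positive (25.7 ± 8.96 CPM) and Retina Input (23.2 ± 3.59 CPM), of which each overlapped the next. Fosb was at 21.5 ± 2.45 CPM in Brain Input and 12.2 ± 3.81 CPM in Brain Positive, without overlap, and at 5.52 ± 0.859 CPM and 4.25 ± 0.666 CPM in Retina Positive and Retina Input, which overlapped. Atf3 was at 19.2 ± 14.3 CPM in Brain Positive, 16.0 ± 0.402 CPM in Retina Input and 15.4 ± 2.42 CPM in Retina Positive, which overlapped, and at 2.82 ± 1.34 CPM in Brain Input, clear of the rest.

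Between the Positive fractions, all 7 members tested were higher in Choroid than in Retina, where 62.4% of genes were called, 31.4% higher and 31% lower. These fractions also differed in other cells, with neuronal markers at 0.463–0.621% of counts in Retina Positive, above the endothelial 0.238–0.461%, and at 0.00369–0.0202% in Choroid Positive. The endothelial markers held 0.885–1.27% in Choroid Positive. The part of these cells in the result was not tested. The log2 fold changes ran from 1.73 ± 0.22 for Junb (edgeR, adjusted p = 4.78e-05) to 2.82 ± 0.25 for Dusp1 (adjusted p = 4.57e-06). Nr4a1 was at 2.49 ± 0.39, Zfp36 at 2.44 ± 0.27, Jun at 2.15 ± 0.19, Ier2 at 2.01 ± 0.17 and Egr1 at 1.92 ± 0.35. Choroid Positive against Brain Positive had 6 of 7 higher, where 52.9% of genes were called, 28.9% higher and 24% lower. Those were Dusp1 (1.87 ± 0.24), Nr4a1 (1.60 ± 0.38), Ier2 (1.54 ± 0.17), Zfp36 (1.54 ± 0.26), Jun (1.23 ± 0.18) and Junb (1.08 ± 0.21). In Brain Positive the endothelial markers held 0.426–0.472% of counts and the neuronal markers 0.313–0.356%, so these fractions also differed in both. The part of this in the result was not tested. Egr1 was at 0.24 ± 0.34 (adjusted p = 0.574), and at 0.67 without Choroid Positive replicate 1 (adjusted p = 0.0195).

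Retina Positive was below Brain Positive for 6 of 7 members, where 57.1% of genes were called, 29.5% higher and 27.6% lower. Endothelial markers held 0.238–0.461% of counts in Retina Positive and 0.426–0.472% in Brain Positive. Neuronal markers held 0.463–0.621% and 0.313–0.356% in the same order. The part of these cells in the result was not tested. Egr1 differed most, at -1.68 ± 0.33 (edgeR, adjusted p = 0.00134), followed by Dusp1 (-0.95 ± 0.24), Jun (-0.93 ± 0.18), Zfp36 (-0.90 ± 0.25), Junb (-0.65 ± 0.20) and Ier2 (-0.47 ± 0.16, adjusted p = 0.0294). The call on Ier2 was lost without any 1 of 5 of the 6 libraries, all but Retina Positive replicate 3, at adjusted p between 0.0531 and 0.0819. That on Junb was lost without Brain Positive replicate 1 (adjusted p = 0.0634). Without Retina Positive replicate 3 the difference in Zfp36 was -1.37. Nr4a1 was at -0.89 ± 0.37 (adjusted p = 0.0587), and was called by DESeq2 (-0.95, adjusted p = 0.0306), with DESeq2's size factors (adjusted p = 0.0449), without Brain Positive replicate 3 (-1.22, adjusted p = 0.0176) and without Retina Positive replicate 1 (-1.18, adjusted p = 0.0413).

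In whole tissue, Retina Input against Brain Input had 2 of 7 members higher and 4 lower, where 67.4% of genes were called, 34.7% higher and 32.8% lower. Egr1 was 12.2-fold lower in whole retina, at -3.61 ± 0.22 (edgeR, adjusted p = 1.10e-07), Junb was at -1.43 ± 0.18, Nr4a1 at -1.28 ± 0.25 and Dusp1 at -0.56 ± 0.15, while Zfp36 was at 0.91 ± 0.22 and Ier2 at 0.82 ± 0.14. Jun was at -0.22 ± 0.11 (adjusted p = 0.109) and was called lower by DESeq2 (-0.31, adjusted p = 0.0121). Choroid Input against Brain Input had 3 higher and 3 lower, where 73.7% were called, 36.6% higher and 37.1% lower. Zfp36 was 12.3-fold higher in whole choroid, at 3.62 ± 0.23 (adjusted p = 8.83e-08), Ier2 was at 1.00 ± 0.15 and Dusp1 at 0.81 ± 0.15. Egr1 was at -2.36 ± 0.22, Junb at -1.02 ± 0.19 and Nr4a1 at -0.83 ± 0.26, a call lost without Brain Input replicate 1 (-0.72, adjusted p = 0.0527) or Choroid Input replicate 3 (-0.73, adjusted p = 0.0603). Jun was at -0.11 ± 0.12 (adjusted p = 0.421).

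Choroid Input against Retina Input had 3 of 7 higher and none lower, where 79.6% were called, 34.8% higher and 44.7% lower. Zfp36 was at 2.72 ± 0.22 (edgeR, adjusted p = 5.94e-07), Dusp1 at 1.37 ± 0.16 and Egr1 at 1.25 ± 0.22. Junb was at 0.41 ± 0.19 (adjusted p = 0.0694), and was called with DESeq2's size factors (0.54, adjusted p = 0.0233), which raised the median of all genes by 0.14, and without Retina Input replicate 1 or Choroid Input replicate 2. Nr4a1 was at 0.45 ± 0.26 (adjusted p = 0.136) and was called without Choroid Input replicate 2 (0.66, adjusted p = 0.0154). Ier2 was at 0.18 ± 0.15 and Jun at 0.11 ± 0.12, neither called. Over genes at or above the median level, a filter that raised the median of all genes by 0.41, Jun was called at 0.52 (adjusted p = 0.00120).

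Members can be set against each other only per length. Divided by the length of their exons in GENCODE vM21, Egr1 led in Brain Input at 45.4 CPM per kilobase, ahead of Junb (30.2) and Jun (26.5). In Brain Positive Jun led at 56.2, ahead of Ier2 (45.2) and Dusp1 (35.7), and Egr1 was in the sixth place at 16.6 CPM per kilobase. In Retina Input Jun (21.4) and Ier2 (16.1) led, and in Retina Positive Ier2 (28.8) and Jun (26.2). In Choroid Positive Ier2, Jun and Dusp1 were almost level at 125, 123 and 121 CPM per kilobase. Fosb was the lowest member per kilobase in Brain Positive (1.91), Retina Input (0.651) and Retina Positive (0.837), and Zfp36 (1.07) and Atf3 (1.26) were the lowest in Brain Input. For Zfp36 (3470 bases), Junb (2301 bases) and Dusp1 (3311 bases), among others, the exon length exceeds the span of the gene given at the start. Their values per kilobase may therefore be too low, and the order of members close to each other is not settled.

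The members also differed between libraries of the same group. Over 54 combinations of member and group, replicate 1 was the highest library in 30, replicate 2 in 11 and replicate 3 in 13. The labels do not say that a number is shared between tissues. Nr4a1 was highest in replicate 1 in 6 of 6 groups and Fos in 4 of 4, whereas Zfp36 was highest there in 0 of 6. Brain Positive replicate 1 was the highest Brain Positive library for 9 of 10 members, against 35.4% of all genes listed in that table, and its members lay on average 0.39 above their group means on the log2 scale. The greatest single excess was that of Atf3, at 1.15 above its group mean. Retina Input replicate 1 was highest for 7 of 10, against 34.0% of all genes, and Choroid Positive replicate 3 for 4 of 7, against 27.5%.

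**Figure D4:**
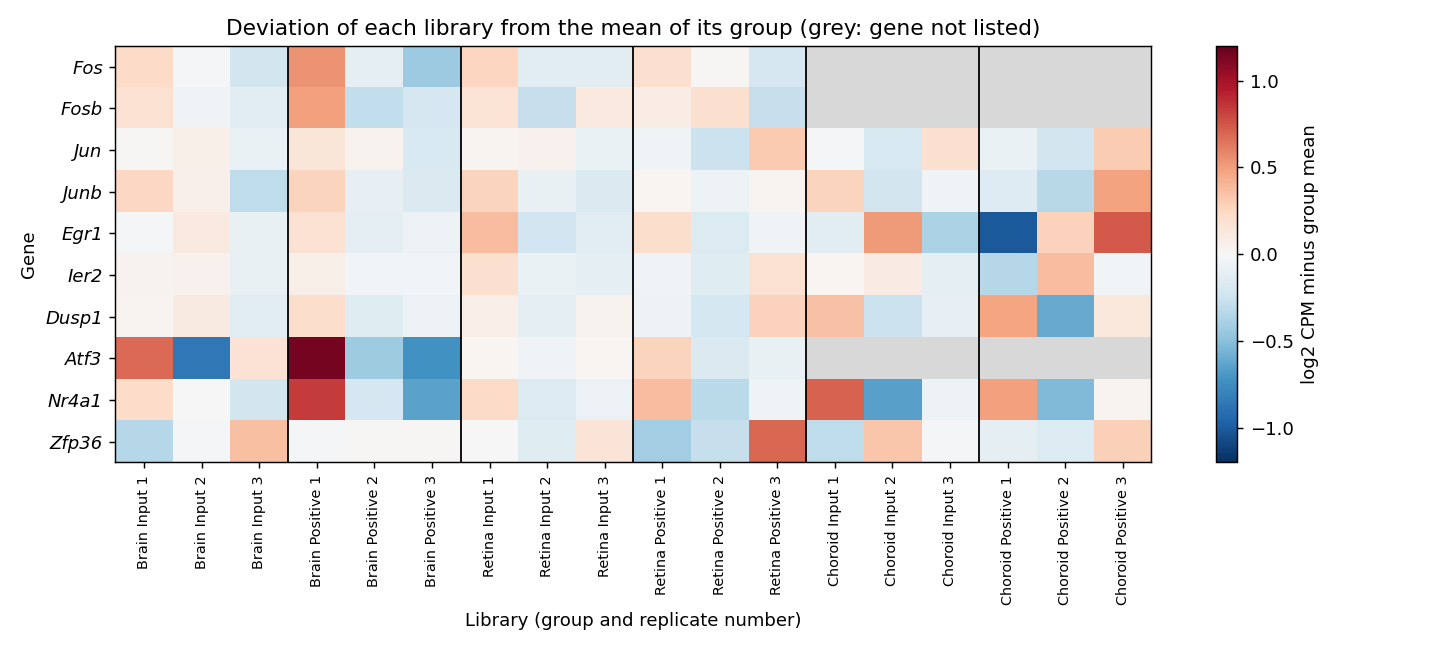
Log2 CPM of each member in each library minus the mean of its group of 3, as a heat map from blue (below) to red (above), with grey where a gene is not listed in the Choroid table. Brain Positive replicate 1 is red for Atf3, Nr4a1, Fos and Fosb together, with Atf3 at 1.15, and Choroid Positive replicate 1 is blue for Egr1, at -1.01.

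The members did not vary as 1 block. Across the 18 libraries and the 21 pairs of the 7 members listed in all tables, Pearson's r between deviations from the group means had a median of 0.14 and ran from -0.43 (Ier2 and Dusp1) to 0.76 (Dusp1 and Nr4a1). It was over 0.5 for 5 pairs, which besides Dusp1 and Nr4a1 were Egr1 with Ier2 (0.66), Junb with Nr4a1 (0.65), Jun with Junb (0.64) and Junb with Dusp1 (0.56). These values are descriptions, since libraries of a tissue share their table and their range of depth. Jun, the AP-1 member listed in every table, was taken as the reference for likeness among 7077 genes. Its levels over the 18 libraries were most like those of Mesdc1 (r = 0.965), Arf2 (0.945), Rab12 (0.943), Hbegf (0.941) and Zdhhc18 (0.940). With group means removed, the closest were D17Wsu104e (0.839), Sec24d (0.837), Eya3 (0.833), Anxa7 (0.824) and Lta4h (0.821), none of which was among the first 5.

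Genes that act beside the members were counted by role. These counts stand against the shares of all genes called, which were 78.1% in Brain (38.3% higher), 26.1% in Retina (15.3% higher) and 36.6% in Choroid (16.3% higher), and no test compared a list with other genes. Of 11 other AP-1 and ATF genes listed in Brain, 6 were higher in Positive, 1 was lower and 4 did not pass, with a median of 0.32, so fewer were called than the share of all Brain genes would give. Jund, the remaining Jun gene, was higher at 0.80 (edgeR, adjusted p = 3.09e-05), Fosl2 was at 0.21 (adjusted p = 0.360), and the rule for named genes also took Batf2 (4.25) and Batf (4.24), leucine zipper partners of Jun. Both were at 0.303 CPM or less in Input and are listed only through their counts in Positive, so the filter of the table had fixed the direction of their change. In Retina 2 of 9 were higher, Fosl2 (1.35) and Jund (0.38), and none was lower. In Choroid 2 of 8 were higher, Fosl2 (1.29) and Jund (0.69), and Atf5 was lower (-1.96). Atf5 was at 36.4 CPM in Choroid Positive and is listed there only through its counts in Input. Fosl2, a Fos relative, was thus called higher in both tissues of the eye, where Fos was not called or not listed. Between-tissue differences were not tested for these genes.

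Of 25 other immediate early genes in Brain, 15 were higher, 6 lower and 4 neither, with a median of 0.36, a called share near that of all Brain genes. Egr2 (-1.51) and Egr3 (-1.13), relatives of Egr1, were lower with it. Klf2 (5.35) and Klf4 (5.23), flow-responsive endothelial factors, had the largest changes. In Retina 13 of 20 were higher and none lower, with a median of 1.11, Nr4a3 at 1.99, Nr4a2 not called at 0.51 (edgeR, adjusted p = 0.0814), and Klf2 (6.19) and Klf4 (4.98) again the largest. Nr4a3 was at 1.78 CPM in Retina Input and, like Batf, is listed only through Positive. In Choroid 12 of 15 were higher and none lower, with a median of 1.60, led by Klf2 (2.54) and Ier5l (2.5), with Ier5 at 2.39. Ier5l, counted among those higher, is listed in Choroid only through its counts in Positive. As for Batf, the filter of the table had therefore fixed the direction of its change.

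The feedback regulators, which act like Dusp1 and Zfp36, had 12 of 19 higher and 4 lower in Brain, 7 of 19 higher and 2 lower in Retina, and 3 of 14 in each direction in Choroid, with medians of 0.78, 0.05 and 0.42. The called shares in Brain and Choroid were near those of all genes. Zfp36l1, a paralogue of Zfp36, was higher in Brain (2.96) and Retina (2.53), and Nfkbia, the inhibitor of NF-kappaB, in all 3 tissues (3.10, 2.46 and 1.71). Dusp4, a nuclear relative of Dusp1, was lower in Brain (-0.99), higher in Retina (0.70) and lower in Choroid (-3.23). In Choroid Positive Dusp4 was at 27.9 CPM, and it is listed in that tissue only through its counts in Input. Dusp5 was lower in Brain (-0.96) and at -0.0041 in Retina, and Dusp6 was lower in Choroid (-0.64).

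Upstream kinases and factors had 9 of 21 higher and 9 lower in Brain (median 0.02), 7 of 21 and 3 in Retina (0.04), and 7 of 15 and 1 in Choroid (0.27). Srf, the serum response factor, was higher in all 3 (0.80, 0.42 and 1.06), and its partner Elk3 much more so (4.00, 4.10 and 2.36). Elk1, another partner, was lower in Brain (-0.63) and Retina (-0.33) and was at -0.08 in Choroid (edgeR, adjusted p = 0.913). In Choroid Positive Elk1 was at 19.4 CPM, and it is listed in that tissue only through its counts in Input. Mkl2, a cofactor of Srf, was higher in Retina (1.73) and Choroid (1.78), and Crem in Brain (1.58).

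Later stress response genes had 16 of 20 higher and 1 lower in Brain (median 1.22), 9 of 17 and 1 in Retina (0.66), and 6 of 13 and 2 in Choroid (0.56). Hspb1, a small heat shock protein, was higher in Brain (4.85). Cxcl1, a chemokine (5.26), was at 0.0452 CPM in Input and is likewise listed only through Positive. Txnip (4.38) and Cdkn1a (4.21) led in Retina. In Choroid Thbs1 was lower (-3.25) and Hbegf higher (2.22). Thbs1 was at 61.5 CPM in Choroid Positive and is listed there only through its counts in Input. Gadd45b was higher in Brain (1.24) and Retina (0.84), and Gadd45g in Choroid (1.27), while Gadd45a at 0.23 and -0.06 and Hspa1a in Choroid at -1.0 (edgeR, adjusted p = 0.0956) were not called. Hspa1a was at 11.1 CPM in Choroid Positive and is likewise listed in that tissue only through its counts in Input.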

How the data were processed

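RNA from 18 TRAP libraries was sequenced by the authors. Their deposited tables give, per the file headers, raw values that are estimated counts per gene (not all whole numbers) and log2 normalized values, with genes kept at 50 or more raw counts in all samples of at least 1 fraction. The submitters' processing notes name DESeq and mm10, while the sources used here name no aligner and no counter. The estimated counts were rounded and compared with edgeR 4.0.16 (R 4.3.3; TMM, minimum count 10, quasi-likelihood F test, Benjamini-Hochberg threshold 0.05) as the report describes. DESeq2 1.42.0, other scalings and filters, each library left out and a replicate block were alternatives. The authors' own factors, recovered from the deposited log2 values, were an alternative chosen after seeing the data. The deposited log2 values were used for nothing else.

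The named genes are the 10 members and, of each role list, the first 2 listed and the 2 with the largest change past the threshold in each tissue. The members and lists were chosen with earlier results of these data known. Same-numbered libraries of a tissue were treated as pairs because, per the labels' protocols, the Input is part of the lysate that is captured, and their deviations from the group means correlated over 0.1 in 8 of 9 pairs (from -0.028 to 0.30). The scripts were tested on simulated data.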

Additional observations from a re-analysis of the deposited data

Results flagged for a closer look

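Each result below is a difference between tissues in the log2 step from Input to Positive that passed its own test (edgeR, adjusted p under 0.05, 3 libraries in each group). The differences share tissues, and no explanation was weighed. Between Choroid and Brain the difference was 2.42 for Egr1, 2.28 for Nr4a1, 1.94 for Junb, 1.18 for Jun, 0.91 for Dusp1 and -2.25 for Zfp36. Between Choroid and Retina it was 2.02 for Jun, 2.02 for Nr4a1, 1.80 for Ier2, 1.43 for Dusp1 and 1.29 for Junb. Between Retina and Brain it was 1.79 for Egr1, -0.84 for Jun, -1.43 for Ier2 and -1.94 for Zfp36, and in the fit of 12 libraries 1.30 for Fos, 1.18 for Fosb and -2.82 for Atf3. Fos, Fosb and Egr1 were called lower in Brain Positive and had values above 0 in Retina that were not called. Without Choroid Positive replicate 1, the difference of Dusp1 between Choroid and Brain was 0.65 and not called (adjusted p = 0.0581, edgeR).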

How the results depend on the processing

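Of the counts of called genes, 457 values under alternatives stayed within 1.5 times the main count and 35 did not. Of the single-gene values, 1077 kept their direction and call, 20 lost and 28 gained a call, and 13 changed sign. Testing only genes at or above the median level, which leaves out members, moved the calls in all genes to 5729 in Brain, 1952 in Retina, 1796 in Choroid, 2010 for Choroid minus Brain and 1647 for Choroid minus Retina. For Positive against Positive they moved to 2225 (Retina and Brain), 2223 (Choroid and Brain) and 2611 (Choroid and Retina), and for Input against Input to 2589, 2831 and 2899 in the same order. Members called higher became 3 in Brain, 1 in Retina, 3 for Choroid minus Retina and 4 for Choroid against Retina Positive. Members called lower became 1 for Retina minus Brain, 0 for Choroid minus Brain and 2 for Retina against Brain Positive. In Input, members called higher became 0 and lower 1 for Retina against Brain, and 1 and 1 for Choroid against Brain.

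A log2 fold change of at least 1 left 4607 genes and 1 member lower in Brain, and 1170 genes and 1 member higher in Retina. An adjusted p under 0.01 left 1733 genes in Retina. Members higher for Retina minus Brain became 2 with DESeq2's size factors, with the DESeq2 Wald test, with the replicate block and with 12 libraries, which called 6072 genes. Leaving out 1 library gave 1836 to 3637 genes in Retina (2048 without Input replicate 1, 1836 without Input replicate 2) and 3 to 5 members higher for Choroid against Retina Input, with 5 without Choroid Input replicate 2.

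Signs changed only for differences that were not called in the main fit. Nr4a1 in Brain was at 0.00039 with DESeq2's size factors, 0.0020 with the DESeq2 Wald test and 0.045 with the authors' factors, and ran from -0.54 to 0.26 without 1 library. Jun for Choroid against Brain Input was at 0.30 and called (adjusted p = 0.0239, edgeR) over genes at or above the median level, a filter that raised the median of all genes by 0.41. Without 1 library, Atf3 in Retina ran from -0.17 to 0.022, Nr4a1 for Retina minus Brain from -0.0094 to 0.80, Zfp36 for Choroid minus Retina from -0.50 to 0.10, Egr1 for Choroid against Brain Positive from -0.30 to 0.67 and Jun for Choroid against Retina Input from -0.011 to 0.20. The cause of these changes was not tested. The pairing of libraries as a replicate block called 11054 (Brain), 3085 (Retina) and 2998 (Choroid) genes. It changed the calls on Junb in Brain, Fos in Retina and Junb and Dusp1 for Retina minus Brain, and on no other member. DESeq2's size factors also shifted the median of all genes by 0.14 for Choroid minus Brain. In Choroid, the shallowest tissue, 31% of simulated 2-fold changes were recovered.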

Other observations

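Some genes in the lists were singled out after their values were seen. Of the 25 other immediate early genes listed in Brain, 15 were higher and 6 lower, and 4 of those lower are given here. Arc had a log2 fold change of -1.48 (edgeR, adjusted p = 2.82e-07), Npas4 of -1.63 (adjusted p = 1.82e-04), Egr4 of -1.78 (adjusted p = 4.34e-07) and Egr3 of -1.13 (adjusted p = 6.04e-05). In the other direction, Maff, a small Maf factor, was higher in the Positive fraction of all 3 tissues, with values of 4.25 (Brain), 1.92 (Retina) and 2.16 (Choroid). Rhob, a small GTPase, was also higher in all 3, at 1.08, 1.97 and 1.83. Ier3 was at 2.70 in Brain and at 0.0012 in Retina (edgeR, adjusted p = 0.994), and Btg2 at 2.37 and -0.21 (adjusted p = 0.133), as Atf3 was at 2.81 and -0.06. Whether Ier3 and Btg2 differed between tissues was not tested.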
